A study of Mus musculus with 16 samples.

Results

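The 10 genes described here encode the PGC-1 family of transcriptional coactivators and the nuclear factors through which it acts on mitochondria: the coactivators Ppargc1a, Ppargc1b and Pprc1, the muscle regulator Perm1, the oestrogen-related receptors (ERRs) Esrra, Esrrb and Esrrg, the respiratory-gene activator Nrf1 (nuclear respiratory factor, not the Nfe2-related factor of similar name), the mitochondrial DNA packaging factor Tfam, and the lipin Lpin1. The genes were chosen by name, and no measured value enters the rule, although earlier results of these data were known when it was made. All 10 were among the 14538 genes of the table and among the 11841 that passed the filter of a mean of at least 10 normalized counts.

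RNA was sequenced from the tibialis anterior (TA), a mainly fast-twitch leg muscle, of 16 male wild-type C57BL/6J mice, with 1 library per mouse. From 8 weeks of age all mice ate a high-fat, high-fructose diet with cholesterol that induces steatohepatitis (NASH diet) and lived at about 29 °C, and they were single-housed for treatment. The vehicle group (n = 5) was not restricted in food. The GDF15 group (n = 6) was injected once a day under the skin with recombinant GDF15, a stress hormone that lowers appetite; doses of 0.3, 1 and 5 nmol/kg are named for the study but not for each library. The pair-fed group (n = 5, mice 2 to 6) was given the food that GDF15 mice had eaten on the day before. Comparing GDF15 with pair-fed mice asks what the hormone changes beyond lower food intake, and comparing pair-fed with vehicle mice asks what lower intake changes. All 3 comparisons share samples, so their values below are set side by side and are not independent. Depth, estimated from the smallest steps between values, was about 11878113 to 15030303 reads per library in vehicle, 9511218 to 13868473 in GDF15 and 11789989 to 14729187 in pair-fed mice. Fast-fibre markers summed to 2282980 to 2867510 normalized counts in the 16 libraries, against 11353 to 39004 for markers of slow and oxidative fibres, most of it Myh2, the myosin of fast oxidative IIa fibres; Myh7, the slow myosin, had a mean of 83.2 in vehicle mice.

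PGC-1 coactivators do not bind DNA. They dock on factors such as the ERRs and Nrf1, which bind upstream of genes for oxidative phosphorylation, fatty acid oxidation and Tfam. Tfam in turn packages mitochondrial DNA and activates its transcription. In skeletal muscle Ppargc1a is known to be induced by exercise, cold, adrenergic signalling through cAMP and calcium, and the ERRs and Perm1 set the oxidative capacity of the fibre.

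The promoters of 4 genes are shown because each holds letters of a motif through which this network is known to be read: the cAMP response element (CRE), the ERR core and the NRF1 core. They are RefSeq sequences of build GRCm38.p6, from 250 bases before to 50 bases after the annotated start, printed along the gene's strand with the motif letters in capitals.

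Ppargc1a, chr5:51567676-51567975, minus strand: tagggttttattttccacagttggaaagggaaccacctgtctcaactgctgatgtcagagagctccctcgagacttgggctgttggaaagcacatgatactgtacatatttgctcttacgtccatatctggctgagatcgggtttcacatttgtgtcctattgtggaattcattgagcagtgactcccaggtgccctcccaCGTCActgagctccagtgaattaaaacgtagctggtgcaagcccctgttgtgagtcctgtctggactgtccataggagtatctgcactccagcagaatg
Perm1, chr4:156215677-156215976, plus strand: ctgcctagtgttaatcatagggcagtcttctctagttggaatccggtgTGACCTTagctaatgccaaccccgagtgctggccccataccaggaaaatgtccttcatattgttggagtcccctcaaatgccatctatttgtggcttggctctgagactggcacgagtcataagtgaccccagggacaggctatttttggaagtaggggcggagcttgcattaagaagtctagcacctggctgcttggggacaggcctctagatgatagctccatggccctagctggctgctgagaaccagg
Esrra, chr19:6921759-6922058, minus strand: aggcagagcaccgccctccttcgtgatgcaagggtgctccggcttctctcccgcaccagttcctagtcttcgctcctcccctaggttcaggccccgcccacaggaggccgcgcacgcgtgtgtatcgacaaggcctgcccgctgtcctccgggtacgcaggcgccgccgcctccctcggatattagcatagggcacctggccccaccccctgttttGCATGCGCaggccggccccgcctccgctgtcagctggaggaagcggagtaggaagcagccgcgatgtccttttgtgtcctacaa
Esrrb, chr12:86360867-86361166, plus strand: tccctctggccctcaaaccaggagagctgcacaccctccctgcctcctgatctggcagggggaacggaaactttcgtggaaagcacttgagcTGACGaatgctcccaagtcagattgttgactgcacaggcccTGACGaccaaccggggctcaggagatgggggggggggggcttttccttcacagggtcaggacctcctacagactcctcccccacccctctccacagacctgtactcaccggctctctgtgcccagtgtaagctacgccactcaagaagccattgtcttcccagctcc

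The capitals mark the short CRE TGACG in Ppargc1a (as CGTCA on the printed strand, from position -49 relative to the start) and in Esrrb (positions -158 and -117), the ERR core AAGGTCA in Perm1 (as TGACCTT, position -202), and the NRF1 core GCATGCGC in Esrra (position -34). AAGGTCA is the core of a longer ERR element that was not searched, so the match in Perm1 is of the core alone. Both strands were searched for 5 motifs in 14 promoters of 9 of the 10 genes; Ppargc1b was not among those matched. Besides those above the search used the full CRE TGACGTCA, which contains the short one, and the E-box CACGTG bound by clock factors, and neither matched in any of the 14. Of 32851 RefSeq promoters of this length, 20.8% held the short CRE, 4.72% the ERR core, 2.71% the NRF1 core, 1.79% the full CRE and 7.15% the E-box. Among 12190 promoters of the tested genes the shares were 30.7%, 3.11%, 5.05%, 2.95% and 10.1%, in the same order. Promoters of Pprc1, Esrrg, Nrf1, Tfam and Lpin1, and the second of Esrrb, held none of the 5. A match of letters is not a bound site, and which start the muscle uses was not measured.

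The 10 genes spanned a wide range of abundance in TA. Per kilobase of the longest coding transcript, Perm1 was highest in vehicle mice with 1290 ± 72.3 normalized counts (SD, n = 5), followed by Lpin1 with 1009 ± 63.3 and Esrra with 844 ± 30.6. Tfam came next with 167 ± 20.2. Ppargc1a (69.4 ± 5.13) and Esrrg (68.5 ± 16.3) differed by less than their spread, as did Pprc1 (48.5 ± 7.81), Esrrb (42.0 ± 2.43) and Nrf1 (41.2 ± 3.79). Ppargc1b was lowest with 26.7 ± 5.21. The first 4 kept their order in all 3 groups and also when all annotated exons set the length, whereas Nrf1, whose 20 annotated transcripts have exons that sum to 10282 bases, then fell to the last place. Perm1 and Lpin1 were more abundant than 97.6% and 98.1% of the tested genes by mean normalized count, not corrected for length, and Ppargc1b more than 29.2%.

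Few of the 10 genes passed a test of difference between the groups. At an adjusted p under 0.1 (limma, Benjamini-Hochberg over all genes tested, the study's threshold for this muscle), none of the 10 genes passed for GDF15 against pair-fed, where 2.17% of all genes passed, and none for GDF15 against vehicle, where 0.769% passed. At an unadjusted p under 0.05 there were 3 and 1 of 10, respectively, beside 1559 and 1308 of all 11841 genes. For pair-fed against vehicle 2 of 10 passed, Esrrb lower and Pprc1 higher, beside 6.37% of all genes, and 4 of 10 had an unadjusted p under 0.05, beside 2234 of all 11841 genes (18.9%). No member reached the further limit of 0.6 in log2 fold change that the study set, which 0.279%, 0.304% and 0.819% of all genes reached together with the adjusted p in the 3 comparisons, in the same order. In 1 member, Esrrb, and 1 comparison, GDF15 against vehicle, the groups did not overlap, where 1.65% of all genes had groups that did not overlap; for GDF15 against pair-fed and pair-fed against vehicle none of the 10 did, beside 1.77% and 5.44% of all genes.

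**Figure D1:**
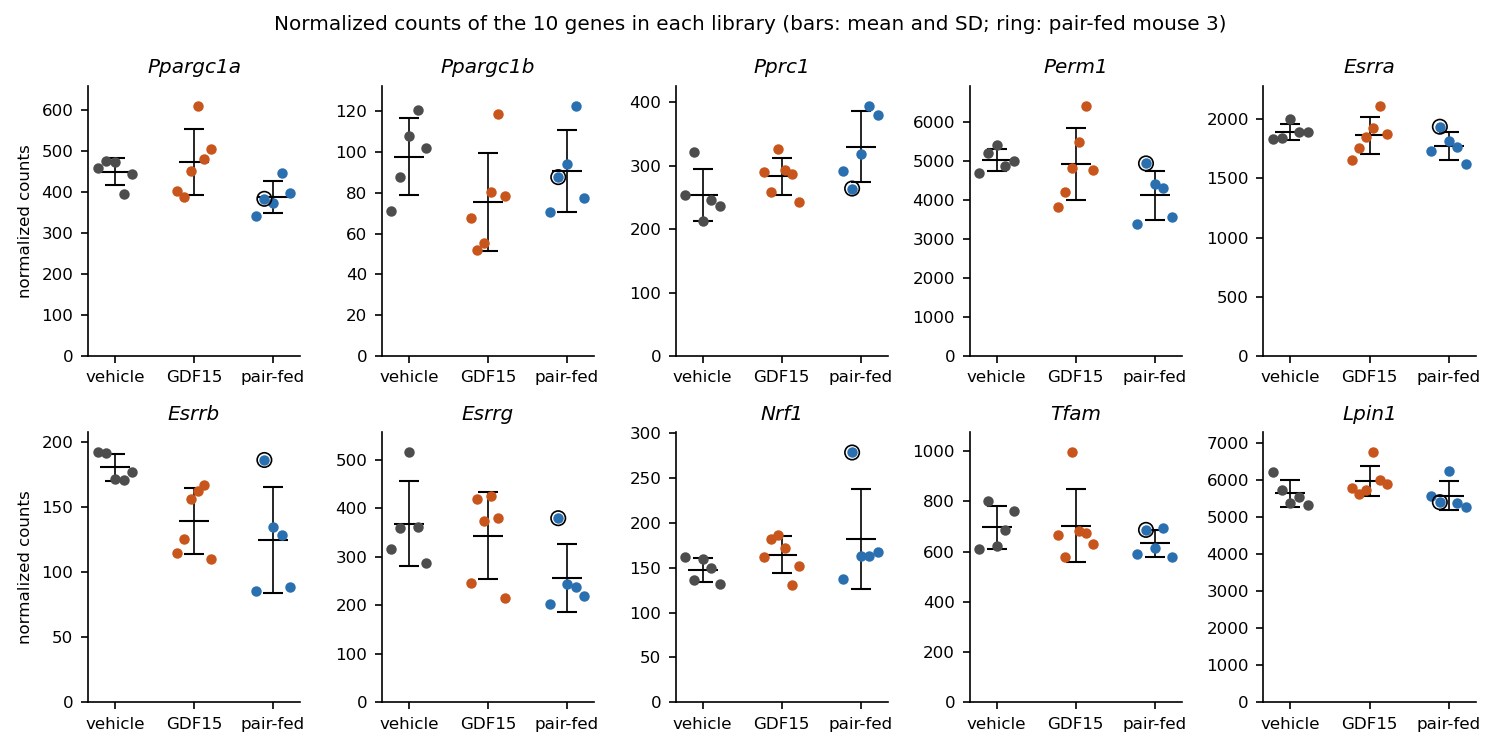
Normalized counts of each gene in each of the 16 libraries, by group (vehicle n = 5, GDF15 n = 6, pair-fed n = 5), with the mean and SD as bars, a ring around pair-fed mouse 3, and axes from 0. Esrrb lies between 171 and 192 in vehicle mice and between 110 and 167 in GDF15 mice, while the pair-fed mice run from 85.2 to 186.

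**Figure D2:**
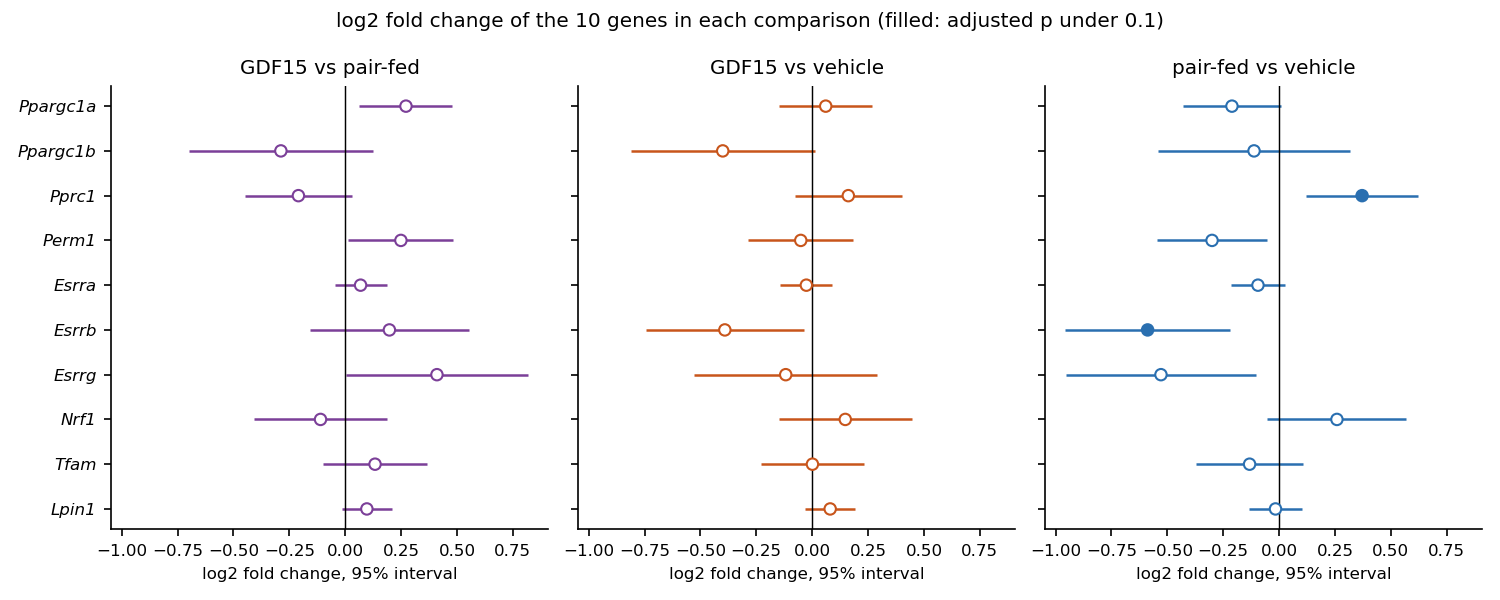
The log2 fold change of each gene in the 3 comparisons with its 95% interval from limma; filled points passed an adjusted p under 0.1. Only Esrrb and Pprc1, both in pair-fed against vehicle, are filled.

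Ppargc1a encodes PGC-1α, the founding member of the family (chromosome 5, 51454250 to 51567726, minus strand, GENCODE vM21 on GRCm38). It measured 457, 475, 473, 394 and 444 normalized counts in vehicle mice 1 to 5. The GDF15 mice had 402, 387, 450, 609, 480 and 505, and pair-fed mice 2 to 6 had 340, 383, 373, 446 and 398. GDF15 mouse 4 was the highest of the 16 and pair-fed mice 2, 4 and 3 were the 3 lowest, but every pair of groups overlapped. Against pair-fed mice, Ppargc1a in GDF15 mice differed by a log2 fold change of 0.27 (SE 0.10, 95% interval 0.06 to 0.48, limma adjusted p = 0.230, unadjusted p = 0.0134). With depth as a covariate this value was 0.11 (limma adjusted p = 0.674). Against vehicle it differed by 0.06 in GDF15 mice (interval -0.15 to 0.27, limma adjusted p = 0.881) and by -0.21 in pair-fed mice (interval -0.43 to 0.01, limma adjusted p = 0.279). The table holds 1 value per gene, so the alternative first exons of Ppargc1a, which are known to give rise to isoforms with different roles in muscle, are not told apart.

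Ppargc1b, the close relative PGC-1β (chromosome 18, 61298136 to 61400431, minus strand), was the least abundant of the 10. It had 71.0, 87.7, 108, 121 and 102 normalized counts in vehicle mice, 67.9, 52.0, 55.4, 80.5, 119 and 78.7 in GDF15 mice, and 70.6, 87.7, 94.3, 123 and 77.7 in pair-fed mice. GDF15 mice 2 and 3 were the lowest of all and GDF15 mouse 5 was among the 3 highest, so the GDF15 group spanned nearly the whole range. GDF15 mice differed from vehicle by a log2 fold change of -0.40 (SE 0.20, interval -0.81 to 0.01, limma adjusted p = 0.466), and that of pair-fed against vehicle was -0.11 (interval -0.54 to 0.32), from -0.23 to -0.03 when 1 mouse was left out. GDF15 and pair-fed mice differed by -0.29 (interval -0.70 to 0.12, limma adjusted p = 0.557), which was -0.17 without pair-fed mouse 5.

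Pprc1 encodes PRC, the third coactivator, known as a growth-responsive partner of Nrf1 (chromosome 19, 46044886 to 46072915, plus strand). Vehicle mice had 254, 322, 212, 246 and 237 normalized counts, GDF15 mice 291, 258, 327, 294, 287 and 242, and pair-fed mice 292, 264, 319, 394 and 381. Pair-fed mice 5 and 6 were the highest 2 of the 16 and 3 of the 4 lowest were vehicle mice, with vehicle mouse 2 inside the pair-fed range and the other 4 vehicle mice below it. Pprc1 was 1.29-fold higher in pair-fed than in vehicle mice, a log2 fold change of 0.37 (SE 0.12, limma adjusted p = 0.0980). GDF15 mice lay between the other groups, with differences of 0.16 from vehicle (limma adjusted p = 0.655, and 0.25 and 0.10 without vehicle mouse 2 and 3) and -0.21 from pair-fed (limma adjusted p = 0.453). The call of Pprc1 was at the edge of the threshold and ended under 20 of 31 alternatives, with adjusted p up to 0.232 without pair-fed mouse 5. Exons of Pprc1 share 177 bases with Ldb1 on the opposite strand, and whether counting used strand is not given in the sources used here.

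Perm1, a muscle-enriched partner of PGC-1α and the ERRs (chromosome 4, 156215868 to 156221307, plus strand), was the most abundant of the 10 per kilobase. Vehicle mice had 4683, 5201, 5407, 4871 and 5001 normalized counts, GDF15 mice 3830, 4201, 4826, 5486, 6414 and 4770, and pair-fed mice 3395, 4941, 4405, 4302 and 3566. Pair-fed mice 2 and 6 were the lowest and GDF15 mice 5 and 4 the highest, so the groups overlapped. Perm1 had a log2 fold change of -0.30 for pair-fed against vehicle (SE 0.12, interval -0.55 to -0.06, limma adjusted p = 0.169), 0.25 for GDF15 against pair-fed (SE 0.11, limma adjusted p = 0.341) and -0.05 for GDF15 against vehicle (interval -0.29 to 0.18).

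The 3 ERRs are orphan nuclear receptors that PGC-1 coactivators switch on. Esrra, the most abundant (chromosome 19, 6910977 to 6921813, minus strand), had 1830, 1845, 2005, 1889 and 1894 normalized counts in vehicle mice. It had 1658, 1760, 1848, 1924, 2112 and 1878 in GDF15 mice and 1727, 1937, 1820, 1769 and 1621 in pair-fed mice. It was the steadiest of the 10 in vehicle mice, with a coefficient of variation of 3.63%, and its differences were narrow: -0.09 for pair-fed against vehicle (interval -0.22 to 0.03, limma adjusted p = 0.406), 0.07 for GDF15 against pair-fed (interval -0.05 to 0.19, and 0.03 and 0.04 without GDF15 mouse 5 and pair-fed mouse 6) and -0.03 for GDF15 against vehicle (interval -0.14 to 0.09). Its exons share 73 bases with Trmt112 on the opposite strand.

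Esrrb (chromosome 12, 86361117 to 86521628, plus strand), best known from stem cells and also expressed in oxidative tissues, had 192, 191, 171, 171 and 177 normalized counts in vehicle mice. GDF15 mice had 115, 125, 156, 162, 167 and 110, and pair-fed mice had 85.2, 186, 134, 129 and 88.9. Every GDF15 mouse lay below every vehicle mouse, and so did every pair-fed mouse except mouse 3. Esrrb was 0.665-fold of vehicle in pair-fed mice, a log2 fold change of -0.59 (SE 0.18, interval -0.96 to -0.22, limma adjusted p = 0.0716). Against vehicle the GDF15 mice had a log2 fold change of -0.39 (SE 0.17, interval -0.74 to -0.04, limma adjusted p = 0.394), so that comparison did not pass although its groups did not overlap. The difference between GDF15 and pair-fed mice was 0.20 (interval -0.16 to 0.55, limma adjusted p = 0.654), and 0.08, 0.36 and 0.09 without pair-fed mouse 2, 3 and 6. The spread of Esrrb was also unequal, with a coefficient of variation of 5.79% in vehicle, 18.2% in GDF15 and 32.8% in pair-fed mice, where the median over all tested genes was 10.5%, 11.8% and 11.1%. Without pair-fed mouse 3 the log2 fold change against vehicle was -0.75 (limma adjusted p = 0.0117), while leaving out pair-fed mouse 2, 5 or 6 or any 1 of the vehicle mice ended the call, with adjusted p from 0.102 to 0.183. It also ended with an untrended prior in limma (adjusted p = 0.113).

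Esrrg (chromosome 1, 187608791 to 188214885, plus strand), known for driving oxidative fibre genes and muscle blood supply, had 316, 360, 515, 362 and 288 normalized counts in vehicle mice. GDF15 mice had 247, 419, 374, 425, 380 and 216, and pair-fed mice had 203, 380, 244, 237 and 218. Pair-fed mouse 3 sat among the vehicle mice, and the other 4 pair-fed mice all lay below the lowest vehicle mouse. In Esrrg the log2 fold change was -0.53 for pair-fed against vehicle (SE 0.20, interval -0.96 to -0.10, limma adjusted p = 0.166), 0.41 for GDF15 against pair-fed (SE 0.19, limma adjusted p = 0.377) and -0.12 for GDF15 against vehicle (limma adjusted p = 0.882). Without pair-fed mouse 3, Esrrg and Perm1 passed against vehicle as well, at -0.68 (limma adjusted p = 0.0522) and -0.37 (limma adjusted p = 0.0783), and 4 of the 10 genes then passed, beside 1051 of all genes.

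Nrf1, the activator of respiratory-chain and Tfam genes (chromosome 6, 30047988 to 30153458, plus strand), lay between 131 and 161 normalized counts in vehicle mice with a median of 149. It lay between 131 and 187 in GDF15 mice with a median of 167, and had 137, 278, 163, 163 and 168 in pair-fed mice. Pair-fed mouse 3 stood alone above all other libraries. The log2 fold change of pair-fed against vehicle was 0.26 (SE 0.15, limma adjusted p = 0.369), that of GDF15 against vehicle 0.15 (limma adjusted p = 0.775), and that of GDF15 against pair-fed -0.11 (limma adjusted p = 0.784), the last of which turned to 0.05 without that mouse. Without it the value for pair-fed against vehicle was 0.09.

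Tfam (chromosome 10, 71225464 to 71238280, minus strand) had 612, 803, 622, 685 and 761 normalized counts in vehicle mice, 664, 580, 995, 682, 673 and 631 in GDF15 mice, and 593, 687, 615, 694 and 580 in pair-fed mice. GDF15 mouse 3 was the highest, and all 3 groups shared the range from 612 to 694. The log2 fold change was 0.00 for GDF15 against vehicle (interval -0.23 to 0.23, limma adjusted p = 0.999), a sign that changed with the scaling, 0.13 for GDF15 against pair-fed (interval -0.10 to 0.36, and 0.03 without GDF15 mouse 3) and -0.13 for pair-fed against vehicle (interval -0.37 to 0.11, and -0.08 without vehicle mouse 2). Transcripts of mitochondrial DNA itself were not analysed here.

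Lpin1 encodes a phosphatidate phosphatase that also acts as a coactivator with PGC-1α (chromosome 12, 16535669 to 16610966, minus strand). It had 6199, 5714, 5380, 5532 and 5318 normalized counts in vehicle mice, 5777, 5613, 5716, 6732, 5997 and 5888 in GDF15 mice, and 5572, 5393, 6234, 5378 and 5260 in pair-fed mice. GDF15 mouse 4 was highest and pair-fed mouse 6 lowest. The log2 fold changes were 0.10 for GDF15 against pair-fed (interval -0.02 to 0.21, limma adjusted p = 0.460), 0.08 for GDF15 against vehicle (interval -0.03 to 0.19) and -0.02 for pair-fed against vehicle (interval -0.13 to 0.10). Without GDF15 mouse 4 the first 2 were 0.06 and 0.04.

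Perm1 and Esrra varied closely together from mouse to mouse, and Esrrb and Esrrg less so. Over the 16 libraries, which share the study's groups, Pearson's r of log2(normalized count + 1) was 0.93 between Perm1 and Esrra, 0.81 between Perm1 and Esrrb, 0.70 between Perm1 and Esrrg and 0.73 between Esrrb and Esrrg. With group means subtracted these were 0.93, 0.80, 0.57 and 0.66. Among all genes ranked by likeness to Perm1 over all libraries, Esrra came 3rd, Esrrb 118th and Esrrg 361st. With group means subtracted, pairs with 1 gene outside these 4 reached 0.66 between Ppargc1b and Perm1, 0.62 between Ppargc1b and Esrra and 0.60 between Nrf1 and Esrrg. For the same pairs r over all libraries was 0.452, 0.495 and 0.252. Over all libraries Ppargc1a had an r of 0.68 with Perm1 (0.56 with group means subtracted), Pprc1 one of -0.51 with Esrra (-0.36) and Nrf1 one of 0.04 with Tfam (0.16). All of these are descriptions without a test.

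**Figure D3:**
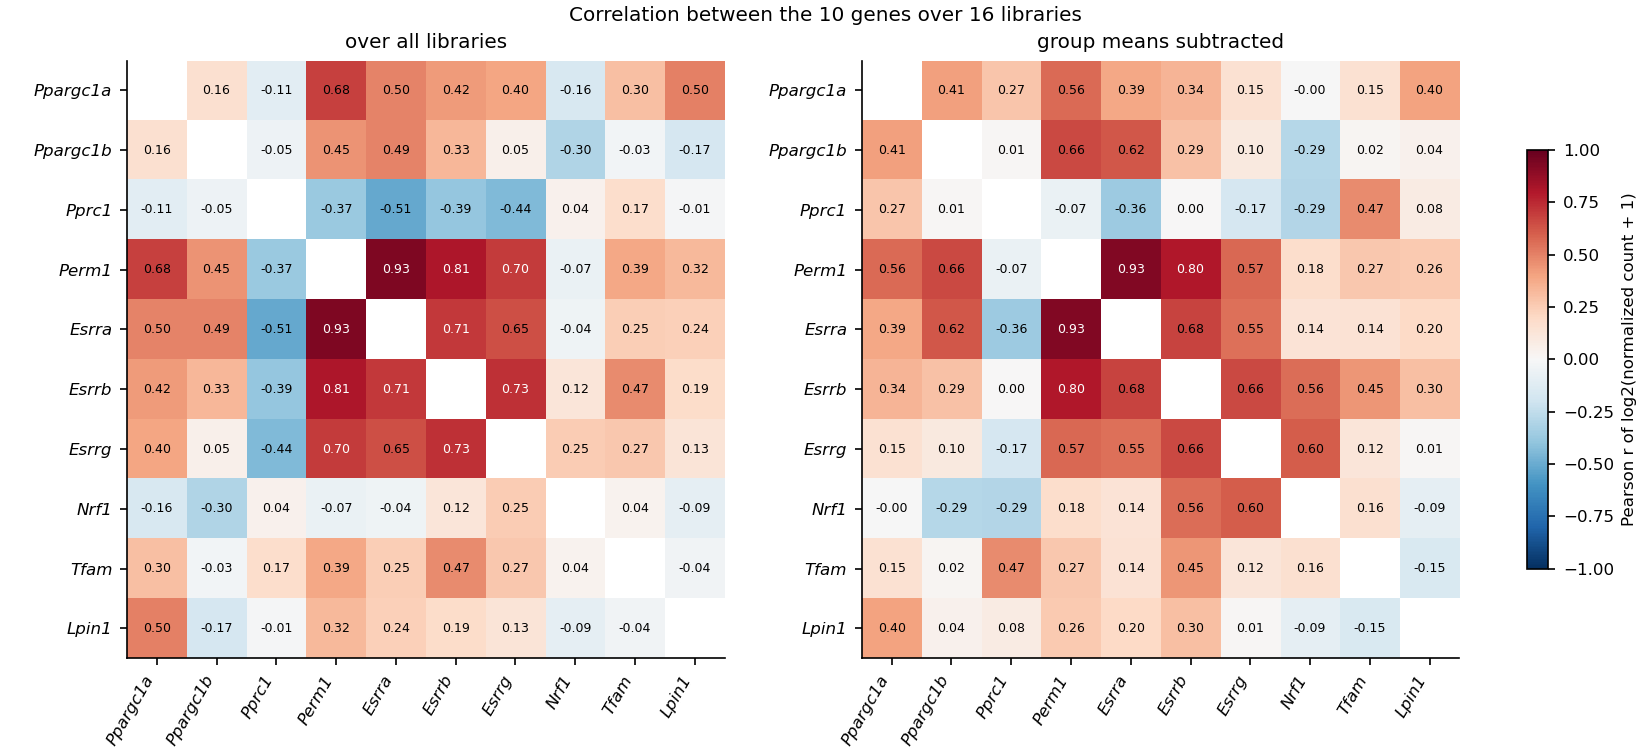
Pearson correlation between the 10 genes over 16 libraries (left) and with the group means subtracted (right), on log2(normalized count + 1), from -1 (blue) to 1 (red). Perm1, Esrra, Esrrb and Esrrg form a block of r between 0.65 and 0.93 over all libraries.

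Among all tested genes, and over all 16 libraries, the ones most like Esrrb were Acadvl (r = 0.961), Ech1 (r = 0.952) and Acadl (r = 0.951), which all encode enzymes of fatty acid oxidation. Most like Esrra were Perm1, Ndufs8 (a complex I subunit, r = 0.907) and Cluh (a binder of mRNAs for mitochondrial proteins, r = 0.899). Most like Perm1 were the magnesium transporter Slc41a1 (r = 0.939), the hypoxia factor Epas1 (r = 0.937) and Esrra, and most like Esrrg were Inka2, Acat1 (a mitochondrial thiolase) and Kank2, with r of 0.884, 0.863 and 0.858. Ppargc1a was most like Farp2, Fam136a and Tgoln1, with r of 0.839, 0.831 and 0.799. Ppargc1b was closest to Mrps35 (r = 0.802), Pprc1 to Pcmtd2 (r = 0.845), Nrf1 to Prickle3 (r = 0.844), Tfam to Rrad (r = 0.824) and Lpin1 to Rcc2 (r = 0.815). With group means subtracted the nearest gene was Prkg1 for Esrrb (r = 0.952), Ndufb9 for Esrra (r = 0.934), Ptpn3 for Perm1 (r = 0.949), Hsd17b10 for Esrrg (r = 0.838), Ugp2 for Ppargc1a (r = 0.857), Nlgn2 for Pprc1 (r = 0.866), Srxn1 for Tfam (r = 0.866) and Myadm for Lpin1 (r = 0.901), and it remained Mrps35 for Ppargc1b and Prickle3 for Nrf1.

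Several genes known as targets of the ERRs and PGC-1 were lower in pair-fed mice. Of 30 listed targets, 7 passed against vehicle, all lower, which is 23.3% of the list beside 6.37% of all genes. The remaining 23 also had negative fold changes, and the median of the 30 was -0.13 on the log2 scale, where the median over all tested genes was 0.00. The sign was negative for 30 of 30 under 2 of the 3 other scalings and for 29 under quantile normalization. For GDF15 against vehicle none passed, 29 of 30 were negative (26 to 29 under the other scalings) and the median was -0.08. For GDF15 against pair-fed none passed, 26 of 30 were positive and the median was 0.04; without pair-fed mouse 6 it was 22 and 0.01, without pair-fed mouse 3 it was 27 and 0.09, and with depth as a covariate it was 20 and 0.01. The list was drawn up with earlier results of these data known, and its genes are not independent of each other.

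Fabp3, the heart and muscle fatty acid binding protein, had the largest change of the 7 and was the only one past 0.6 in log2 fold change. It had 12843 ± 1810 normalized counts in vehicle mice (SD, n = 5), 9656 ± 2373 in GDF15 mice (n = 6) and 8406 ± 2294 in pair-fed mice (n = 5), a log2 fold change of -0.65 for pair-fed against vehicle (SE 0.19, limma adjusted p = 0.0667). Cytochrome c (Cycs) had the smallest adjusted p, with 2506 ± 139 in vehicle, 2210 ± 106 in GDF15 and 2103 ± 157 in pair-fed mice, a log2 fold change of -0.25 (SE 0.05, limma adjusted p = 0.0178). The muscle subunit of cytochrome oxidase Cox7a1 was lower by -0.24 (SE 0.05, limma adjusted p = 0.0200) and myoglobin (Mb), which stores oxygen, by -0.50 (SE 0.14, limma adjusted p = 0.0515). The carnitine carrier Slc25a20 (-0.37), the mitochondrial creatine kinase Ckmt2 (-0.39) and the irisin precursor Fndc5 (-0.42) completed the 7, with limma adjusted p of 0.0534, 0.0565 and 0.0660. The calls of Cycs and Cox7a1 held under all 31 alternatives, and those of the other 5 ended under 5 to 9, among them the fit without pair-fed mouse 2.

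**Figure D4:**
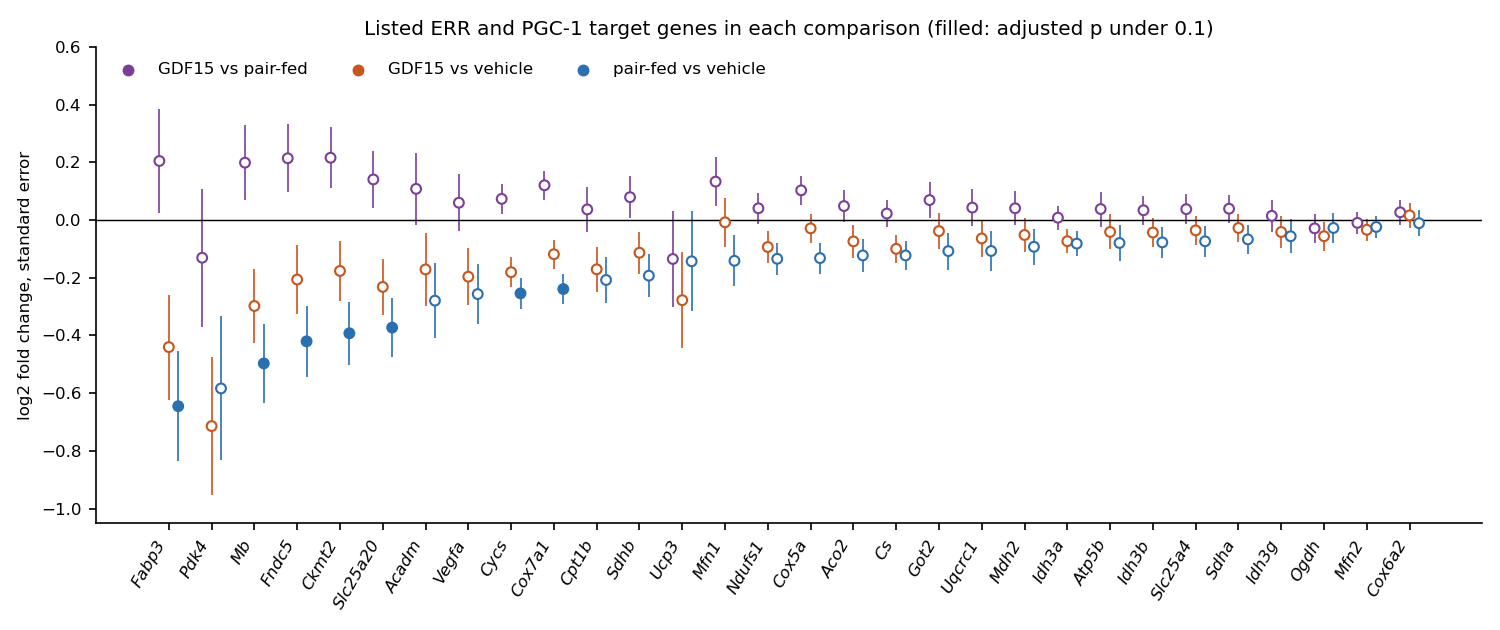
The log2 fold change of each of the 30 listed ERR and PGC-1 target genes in the 3 comparisons, with standard errors from limma, ordered by pair-fed against vehicle; filled points passed an adjusted p under 0.1. The 30 points of pair-fed against vehicle are all below 0 (29 under quantile normalization) and 7 are filled, and none is filled in the other comparisons.

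The target genes followed the same mice as Esrrb. As a mean over the 30 genes relative to the vehicle mean, on the log2 scale, the vehicle mice lay between -0.03 and 0.06. Pair-fed mice 2 to 6 had -0.36, -0.05, -0.08, -0.16 and -0.34, and GDF15 mice 1 to 6 had -0.35, -0.20, -0.07, 0.02, -0.02 and -0.20. GDF15 mice 1, 2 and 6 were thus as low as pair-fed mice, whereas GDF15 mice 4 and 5 and pair-fed mouse 3 lay near the vehicle mice. Over the 16 libraries the correlation with this mean was 0.93 for Esrrb, 0.88 for Perm1, 0.79 for Esrra, 0.72 for Esrrg and 0.55 for Ppargc1a, and it was 0.43 for Tfam, 0.42 for Ppargc1b, 0.28 for Lpin1, 0.00 for Nrf1 and -0.32 for Pprc1. With group means subtracted it was 0.89 for Esrrb, 0.91 for Perm1, 0.79 for Esrra, 0.66 for Esrrg, 0.55 for Ppargc1a, 0.39 for Tfam, 0.41 for Ppargc1b, 0.42 for Lpin1, 0.34 for Nrf1 and 0.05 for Pprc1. Without pair-fed mouse 3, 11 of the 30 passed against vehicle, beside 1051 of all genes. Without pair-fed mouse 2, pair-fed mouse 6 or vehicle mouse 2 it was 2 in each case, beside 460, 410 and 475 of all genes.

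Other markers moved with the pair-fed group. Only the level of slow-fibre markers was fitted as a covariate. With it, 30 of 30 listed targets stayed negative for pair-fed against vehicle, with a median of -0.13 beside 0.00 over all genes. The part of the other markers in these results was not tested. Of 10 fast-fibre markers 4 passed against vehicle, with Actn3, Pvalb and Ckm higher (0.33, 0.27 and 0.15 on the log2 scale) and Myh1, the myosin of IIx fibres, lower (-0.68). The call of Ckm ended under 21 of 31 alternatives, and its value was 0.00 under quantile normalization. For GDF15 against pair-fed 9 of 10 were negative and Actn3 passed, lower (-0.27). Their summed level was 2282980 to 2561240 in vehicle, 2313580 to 2600660 in GDF15 and 2484870 to 2867510 in pair-fed mice. None of 10 markers of slow and oxidative fibres passed. Their sum ranged over 24985 to 39004, 15412 to 36211 and 11353 to 33616 in the same order and was mostly Myh2, at 27608 ± 5730, 24526 ± 7831 and 19083 ± 7428 (SD). By gene, 6 of 10 had positive fold changes for pair-fed against vehicle (median 0.26) and 8 of 10 for GDF15 against vehicle (median 0.31). All 6 endothelial markers had negative fold changes in GDF15 and in pair-fed mice against vehicle, and Kdr, the main receptor for VEGF, passed in both (-0.66 and -0.50); their sum was 5089 to 6064 in vehicle, 4313 to 5344 in GDF15 and 4471 to 5368 in pair-fed mice. Of 4 satellite cell markers only Sdc4 passed, lower in pair-fed than vehicle mice (-0.54) and higher in GDF15 than pair-fed mice (0.34). The sums were 331 to 389, 268 to 352 and 251 to 274 and were mostly Sdc4, with means of 271, 236 and 186. By gene, 3 were lower and 1 was higher in pair-fed than vehicle mice. For GDF15 against pair-fed 2 were higher and 2 lower (median 0.03). In bulk muscle, fewer cells of a type and less RNA per cell cannot be told apart.

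Markers of adipocytes (8 tested), fibroblasts (6), macrophages (6), Schwann cells (6) and red blood cells (3) gave no gene past the threshold in any comparison. For GDF15 against pair-fed all 6 markers of fibroblasts, macrophages and Schwann cells had positive fold changes, with medians of 0.35, 0.49 and 0.38 on the log2 scale, and 2 of the Schwann cell markers had an unadjusted p under 0.05. The 3 red blood cell markers were positive too, with a median of 1.17, and of 1.24 for GDF15 against vehicle. Their summed level varied widely within groups, from 262 to 3153 in vehicle, 842 to 2571 in GDF15 and 82.6 to 3760 in pair-fed mice, with 1 untested marker included. Of 8 adipocyte markers 5 were positive against pair-fed (median 0.10) and 7 against vehicle (median 0.36). Of 3 brown adipocyte markers only Cox7a1, a muscle gene too, passed. Alas2, the first enzyme of haem synthesis in red blood cells, was at 0 in a pair-fed library.

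In the wider network around the 10 genes the share of genes that passed was in most lists near that of all genes, which was 2.17% for GDF15 against pair-fed, 0.769% for GDF15 against vehicle and 6.37% for pair-fed against vehicle. Among the DNA-binding partners of PGC-1 (21 tested), 3 passed for pair-fed against vehicle, or 14.3%. Ppara, the receptor for fatty acids, was lower, at 62.7 to 89.1 normalized counts in vehicle and 26.3 to 64.6 in pair-fed mice (log2 fold change -0.84, SE 0.22, limma adjusted p = 0.0409). Mef2c, a muscle factor that also drives Ppargc1a, was lower by -0.16 (limma adjusted p = 0.0747), and Nfe2l2, the antioxidant regulator, was higher by 0.26 (limma adjusted p = 0.0131). Nfe2l2 was the 1 partner that passed for GDF15 against pair-fed, lower by -0.20 (limma adjusted p = 0.0662), with 522 ± 26.7 in vehicle, 544 ± 20.5 in GDF15 and 626 ± 37.0 in pair-fed mice. The call of Nfe2l2 against vehicle held under all 31 alternatives, that of GDF15 against pair-fed under 20, that of Ppara under 29 and that of Mef2c under 22.

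Of 38 upstream regulators and coregulators 1 passed for GDF15 against pair-fed (2.63%) and 3 for pair-fed against vehicle (7.89%), and Nrip1 passed in both. Nrip1 encodes RIP140, a corepressor known to oppose PGC-1α and the ERRs in muscle. It had 269 ± 36.8 normalized counts in vehicle, 276 ± 53.5 in GDF15 and 389 ± 50.3 in pair-fed mice. This gave a log2 fold change of 0.53 for pair-fed against vehicle (SE 0.13, limma adjusted p = 0.0297) and of -0.50 for GDF15 against pair-fed (SE 0.12, limma adjusted p = 0.0592), and GDF15 differed from vehicle by 0.03 (interval -0.23 to 0.28). The kinase Mapk14 (p38α), known to activate PGC-1α, was lower by -0.22 and the calcineurin subunit Ppp3ca higher by 0.18 in pair-fed against vehicle mice, with limma adjusted p of 0.0502 and 0.0651. Under the 31 alternatives Nrip1 passed in 31 for pair-fed against vehicle and in 21 for GDF15 against pair-fed, Mapk14 in 27 and Ppp3ca in 23.

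Of 25 genes for transcription and upkeep of mitochondrial DNA 1 passed (4.0%), Mterf2, lower in pair-fed than vehicle mice (-0.37, limma adjusted p = 0.0577). Of 22 genes of mitochondrial import and dynamics 1 passed in each of 2 comparisons (4.55%): the fusion GTPase Opa1 was lower in pair-fed than vehicle mice (-0.19, limma adjusted p = 0.0821) and the import channel subunit Timm17a was higher in GDF15 than pair-fed mice (0.18, limma adjusted p = 0.0906). Of 12 lipin and phosphatidate genes 1 passed (8.33%), the acyltransferase Agpat3, lower in pair-fed than vehicle mice (-0.26, limma adjusted p = 0.0495). These calls ended under 6 of 31 alternatives for Mterf2, 9 for Opa1, 18 for Timm17a and 6 for Agpat3. Clock genes, which keep daily time in muscle and are known to follow meals, changed more widely. Of 17 listed genes of the core clock and its outputs, 14 passed for pair-fed against vehicle, 9 for GDF15 against vehicle and 3 for GDF15 against pair-fed.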

How the data were processed

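The authors made 1 directional library per mouse from TA RNA, sequenced paired reads, trimmed them with Trim Galore, quantified transcripts with Salmon (build mm10) and normalized the genes with DESeq2, per the labels and the submitters' processing notes; versions and the strand setting are not given in the sources used here. The deposited table holds log2 variance-stabilized values of 14538 genes in 16 libraries. They run from 7.32, the value of a count of 0 (8459 entries), to 19.96.

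The log2 values were transformed back to normalized counts by inverting the closed form of that transformation. Whole reads were not recovered: among low values of genes with 1 transcript 91.0% to 96.7% were whole multiples of 1 read within 0.1, but only 20.3% to 26.6% for genes with over 4 transcripts. So limma 3.58.1 (R 4.3.3) took the place of a count model, on log2(normalized count + 1), which understates changes of low genes. It was fitted once over the 3 groups and 11841 genes with a mean of at least 10, with a trended prior, two-sided, with Benjamini-Hochberg adjustment over all of them. A gene passed at an adjusted p under 0.1. Tables and figures used Python 3.11.15, pandas 2.3.3 and numpy 2.4.6. On simulated data for GDF15 against pair-fed, with 11789 genes, 89 of 97 changes of 1 and 53 of 99 changes of 0.5 on the log2 scale were called, and 16 of 11593 unchanged genes. Depth limits precision for the low genes.

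Members and gene lists were chosen with earlier results of these data known. All 10 members are named, with at most 3 genes of each pathway list and comparison by adjusted p; the other 4 ERR targets that passed and the 4 fast-fibre markers, Kdr and Sdc4 were named after their values were seen. Alternatives varied the pseudocount, filter, scaling, prior, weights, covariates and samples. Positions are from GENCODE vM21 and promoters from RefSeq, both on GRCm38.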

Additional observations from a re-analysis of the deposited data

Results flagged for a closer look

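Of 30 groups of 5 or 6 mice examined, 4 held a mouse far from the rest of its group, where chance alone gives about 1 in 20. Pair-fed mouse 3 had 379.6 normalized counts of Esrrg, where the nearest pair-fed mouse had 243.9, and 278.2 of Nrf1, where the nearest had 167.8. GDF15 mouse 3 had 994.6 of Tfam, with the nearest at 681.6. GDF15 mouse 4 had 6732 of Lpin1, with the nearest at 5997. The cause of these gaps was not tested.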

How the results depend on the processing

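The log2 fold changes of the 10 genes in 3 comparisons were recomputed under 31 alternatives, of which 16 each left out 1 mouse. Of 930 values 878 kept their direction and their side of the threshold, 30 lost a call, 3 gained one and 19 changed sign. The counts of members past the adjusted p were 0 throughout the other settings for GDF15 against either group. For pair-fed against vehicle the count of 2 became 1 with a minimum mean of 1, without a filter, on the deposited values, with summed-count scaling and with the slow-fibre covariate, and 0 without the trend and with the replicate block; leaving out 1 mouse gave 0 to 4. Perm1 passed there when only the 2 groups were fitted (adjusted p = 0.0895). Mice of different groups share numbers, and the sources used here do not say whether equal numbers mark matched mice. Deviations of same-numbered mice correlated by -0.099 to 0.067. That correlation over all genes cannot tell whether food rations were matched mouse by mouse. The replicate block gave no member past the adjusted p, and 190 genes for GDF15 against pair-fed, 38 against vehicle, and 520 when the pair-fed mice were set against vehicle.

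Signs changed for values near 0. For GDF15 against vehicle Ppargc1a was -0.0871 with depth as a covariate, and Tfam was -0.0317 with depth, -0.0186 with library weights, -0.0032 with quantile normalization, -0.0033 with summed counts and -0.001 with the slow-fibre covariate. Lpin1 in pair-fed against vehicle was 0.0052 with the replicate block. Leaving out 1 mouse gave ranges of -0.0161 to 0.114 for Ppargc1a, -0.132 to 0.0171 for Perm1, -0.063 to 0.0068 for Esrra, -0.199 to 0.0098 for Esrrg and -0.103 to 0.0546 for Tfam in GDF15 against vehicle, -0.201 to 0.0534 for Nrf1 in GDF15 against pair-fed, and -0.0577 to 0.0191 for Lpin1 in pair-fed against vehicle.

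Over all genes, the 257 past the adjusted p for GDF15 against pair-fed became 115 without the trend, 107 with the depth covariate, 122 in the fit of 2 groups and 66 to 372 without 1 mouse. The 91 for GDF15 against vehicle became 48, 32 with depth, 60 with the slow-fibre covariate and 38 to 97, and the 754 for pair-fed against vehicle ranged over 406 to 1051 without 1 mouse. Past both thresholds, the deposited values gave 7, 9 and 17 genes against 33, 36 and 97; for GDF15 against vehicle the block gave 20 and depth 19; leaving out 1 mouse gave 15 to 62, 18 to 38 and 60 to 158. Pair-fed mouse 5 gave the lowest and pair-fed mouse 3 the highest of these counts in both comparisons with pair-fed mice. The causes were not tested. Of the pathway-list calls named in the text, those of Cycs, Cox7a1, Nfe2l2 and Nrip1 in pair-fed against vehicle held throughout. On the deposited log2 values, where low counts are compressed, fold changes of the less abundant members were smaller, such as -0.25 for Esrrb in pair-fed and -0.13 for Ppargc1b in GDF15 against vehicle mice.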
